A study of Rattus norvegicus with 11 samples.

Results

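The genes described are macrophage and myeloid cell genes: cell surface proteins, receptors, lysosomal proteins, oxidase subunits, transcription factors and signalling proteins found in macrophages and related white blood cells. They were chosen by name, with earlier results of these data known. Of 42 named genes, all were listed in the deposited table, and 39 of them reached a value of 10 in 3 or more of the 11 libraries and were tested, among 12085 such genes in a table of 16811. Dorsal root ganglia, where the cell bodies of sensory neurons lie, were taken from Sprague-Dawley rats with a sham operation (Sham, n = 4), with spinal nerve ligation (SNL, n = 4) or with UNC0638 given after the same ligation (SNL plus UNC0638, n = 3). Spinal nerve ligation is an injury of peripheral nerve fibres used to model neuropathic pain, and UNC0638 inhibits G9a and GLP, enzymes that methylate histone H3. All 3 groups shared strain and tissue, and the labels name no allele or transgene. The series title names silencing of K+ channel genes by G9a as its subject. Sham ganglia were taken from the right side and ligated ones from the left, so that side and ligation cannot be told apart. RNA was extracted with either Trizol or RNeasy, and reagent and group cannot be told apart. The sources used here do not give the time after surgery, the age of the rats or the dose and route of UNC0638, and no library received UNC0638 without ligation. The labels tie no library to an animal. Where replicates were not separate rats, p-values measure only the spread between these libraries, which may be technical.

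Macrophages reside in dorsal root ganglia near the neurons and in their sheath, and monocytes can enter the ganglion from the blood after a nerve is injured. They take up debris through scavenger and Fc receptors, degrade it in lysosomes and can make reactive oxygen with the phagocyte NADPH oxidase. Their identity depends on the transcription factor PU.1, encoded by Spi1, which acts together with interferon regulatory factors such as Irf8. Many of the genes below are also expressed in neutrophils, dendritic cells or lymphocytes, and some, such as Lgals3, are known from injured neurons or glia too. In RNA from whole tissue, more cells of a type and more RNA per cell cannot be told apart.

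The values are gene counts scaled by the authors with 1 factor per library, called scaled counts here. Totals per library were 9450045 to 11347920, and 6127881 to 24367805 reads were estimated behind them. Markers of sensory neurons were present throughout and lower after ligation: 17 of them summed to 434420 to 543210 in Sham, 190130 to 281200 in SNL and 187550 to 310180 in SNL plus UNC0638, and 15 of the 17 fell in SNL against Sham (median log2 fold change -1.89). Of all genes tested, 23.4% were called lower in SNL against Sham. Some libraries stood apart. Sham replicate 3 had the highest Sham value for 26 of the 39 genes tested, and SNL replicate 3 the lowest SNL value for 30. SNL plus UNC0638 replicate 1 had the lowest value of its group for 33 genes and also held 85862 scaled counts of skeletal muscle genes, against 249 to 666 in every other library. For the calls among the 39 genes, and for some other lists, refits without these libraries are given. A further fit carried a term for 5 libraries (replicate 3 of Sham, replicate 3 of SNL and the 3 with UNC0638) against the other 6, following earlier results of these data.

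Ligation was accompanied by higher levels of most of these genes. In SNL against Sham, 35 of the 39 genes tested rose (89.7%), none fell, and 4 did not pass the test (Cd48, Cd163, Inpp5d and Coro1a). Of all 12085 genes, 24.8% were called higher and 23.4% lower in that comparison. The 39 genes were chosen with earlier results of these data known, so that the contrast is a description only. Calls were made at an adjusted p under 0.05 in limma, a linear model fitted to log2(value + 1) across all genes, so that the fold change of low genes is understated. The median log2 fold change of the 39 genes was 1.71, beside -0.0033 over all genes tested. For 31 genes (79.5%) every SNL library was above every Sham library, beside 22.1% of all genes. At least 2-fold higher and called were 32 genes, and at least 4-fold higher and called were 12. All 35 calls held in each of 23 other settings that tested the gene, including those without each library and those with Sham replicate 3 and SNL replicate 3 left out.

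Averaged over the 39 genes on the log2 scale, the Sham libraries lay -0.31 to 0.46 from the Sham mean, the SNL libraries 1.20 to 1.90 above it and the SNL plus UNC0638 libraries 1.40 to 2.12 above it. The lowest SNL library was replicate 3 and the lowest with UNC0638 was replicate 1. The ranges of the ligated groups overlapped, and neither overlapped with Sham.

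**Figure D1:**
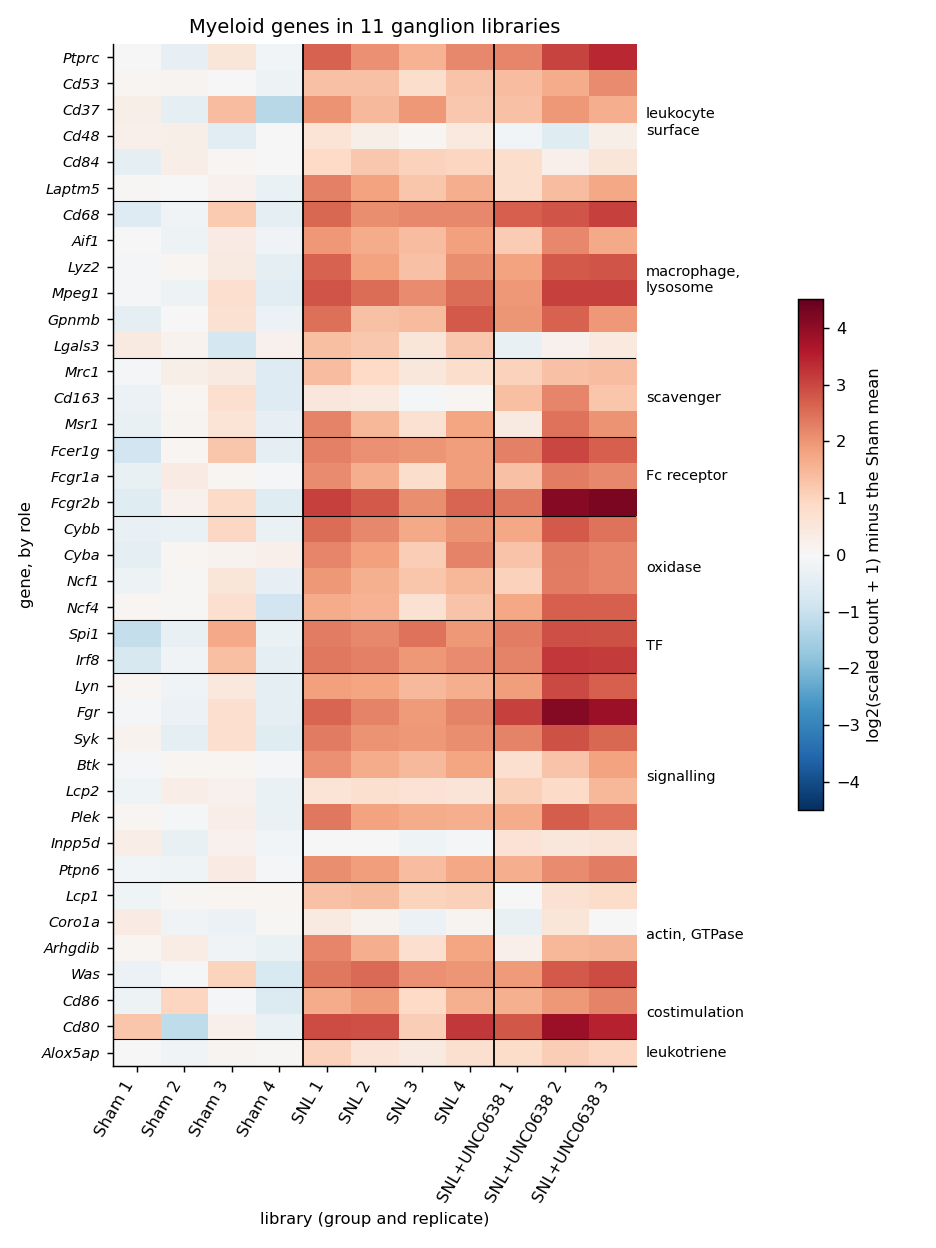
Heat map of the 39 genes tested (vertical axis, grouped by role) in each of 11 libraries (horizontal axis, ordered by group and replicate). Colour gives log2(value + 1) minus the Sham mean of that gene; the SNL and SNL plus UNC0638 columns are above the Sham mean for most genes, while Cd48 and Coro1a stay near it.

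Some members, called with ligation or not, are shown here with the letters near their start sites. RefSeq promoter windows of 300 bases (250 before to 50 after a start, rat build GRCr8, a later build than the rn4 of the data) were given for 27 of the 42 genes. A search on either strand covered 4 motifs. A gene was counted if any of its windows held the letters, while the shares over all genes are per window, so the units differ. The letters GAGGAAGT, a form of the PU.1 site, were in the windows of 3 of the 27 genes (11.1%), beside 2.42% of 33469 windows of all genes. Its shorter core GAGGAA, which every GAGGAAGT contains, was in 14 (51.9%), beside 27.6% of all windows. The composite GGAANNGAA, a site for PU.1 with an interferon regulatory factor, was in 5 (18.5%), beside 9.32%. TATAAA was in 2 (7.41%), those of Irf8 and Laptm5, beside 14.2%. These are counts of letters, and no binding was measured. The stretches below run 5′ to 3′ on the gene's strand over 100 bases, from 90 before the start to 10 from it, with the letters found in capitals. The first 3 are the genes with GAGGAAGT, which reads ACTTCCTC on the opposite strand.
Cd53 (chr2:197087887-197087986, minus strand): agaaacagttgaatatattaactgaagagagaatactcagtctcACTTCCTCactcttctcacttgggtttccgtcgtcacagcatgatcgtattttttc
Cd37 (chr1:104860775-104860874, minus strand): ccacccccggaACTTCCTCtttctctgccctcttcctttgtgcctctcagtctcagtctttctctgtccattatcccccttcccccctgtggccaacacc
Inpp5d (chr9:95735443-95735542, plus strand): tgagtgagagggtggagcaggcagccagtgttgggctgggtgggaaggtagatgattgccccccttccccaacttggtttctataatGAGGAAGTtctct
Of these 3, Cd53 and Cd37 rose with ligation, and Inpp5d did not pass the test. The next stretches, of Cd68 and Cybb, each hold GAGGAA overlapping with GGAANNGAA, read on the opposite strand as a single run of capitals, and Cd68 holds a further GAGGAA at its start.
Cd68 (chr10:54882432-54882531, minus strand): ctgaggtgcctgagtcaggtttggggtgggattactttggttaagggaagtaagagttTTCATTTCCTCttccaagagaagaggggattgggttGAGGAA
Cybb (chrX:16065056-16065155, minus strand): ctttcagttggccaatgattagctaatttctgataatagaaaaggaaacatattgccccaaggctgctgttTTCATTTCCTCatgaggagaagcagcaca
The stretches of Fgr and Cd163, the genes with the largest rise with UNC0638 against SNL among those tested, held none of the 4 motifs in this window.
Fgr (chr5:150473707-150473806, plus strand): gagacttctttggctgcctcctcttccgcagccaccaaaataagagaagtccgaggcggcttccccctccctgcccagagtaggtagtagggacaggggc
Cd163 (chr4:158770684-158770783, plus strand): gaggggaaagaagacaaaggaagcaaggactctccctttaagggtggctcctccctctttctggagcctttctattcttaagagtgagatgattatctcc
No match says only that these letters are not in these bases.

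Of the leukocyte surface genes, 5 of 6 tested rose with ligation. Laptm5, a lysosomal membrane protein of blood cells, had the smallest p of this role in SNL against Sham. Its scaled counts, here and below in the order of the replicate numbers, were 182, 178, 201 and 144 in Sham, 852, 617, 422 and 545 in SNL and 303, 463 and 584 in SNL plus UNC0638. All ligated libraries were above all Sham libraries, with means of 176 ± 23.9 (SD, n = 4) in Sham and 609 ± 181 (SD, n = 4) in SNL (log2 fold change 1.75, SE 0.23, adjusted p = 0.000186). Ptprc encodes CD45, the tyrosine phosphatase on all nucleated blood cells, and rose from 134 ± 39.3 to 586 ± 182 (log2 fold change 2.12, adjusted p = 0.000216). Cd53 and Cd37, tetraspanins of leukocytes, rose by 1.17 and 1.66 on the log2 scale (adjusted p = 0.000403 and 0.0113), and Cd84, a receptor of the SLAM family, by 1.03 (adjusted p = 0.00134).

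Cd48, a ligand of another SLAM receptor, did not pass the test. Its values were 1374, 1430.3, 859 and 1172 in Sham, 1824, 1422, 1249 and 1623 in SNL and 1078, 812 and 1409.9 in SNL plus UNC0638. The groups overlapped, and the 95% confidence interval of the SNL difference from Sham was -0.088 to 0.79 around a log2 fold change of 0.35 (adjusted p = 0.168). Cd52, a small surface antigen of lymphocytes and monocytes, was not tested, with at most 3.1 scaled counts in any library.

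All 6 macrophage and lysosomal genes tested rose with ligation, and none overlapped between Sham and SNL. Mpeg1, a pore-forming protein of phagocyte vacuoles, had 209, 189, 371 and 158 in Sham, 1551, 1244, 951 and 1262 in SNL and 854, 1867 and 1849 in SNL plus UNC0638. Sham replicate 3 was the highest Sham library and still below every ligated library (log2 fold change 2.49, SE 0.30, adjusted p = 0.000134). Lyz2, the lysozyme of phagocytes, had 1717 ± 413 in Sham, 7008 ± 2726 in SNL and 9677 ± 3327 (SD, n = 3) in SNL plus UNC0638 (log2 fold change 1.98, adjusted p = 0.000371 in SNL against Sham). Cd68, a lysosomal glycoprotein used to stain macrophages, rose from 24.6 ± 17 to 107 ± 17.6 (log2 fold change 2.25, adjusted p = 0.000304). Aif1, which encodes the calcium-binding protein IBA1, rose from 108 ± 21.1 to 355 ± 57.9 (log2 fold change 1.71, adjusted p = 0.000159).

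Gpnmb, a glycoprotein of macrophages with a heavy lysosomal load, had 185, 239.7, 393 and 205 in Sham, 1377, 614, 655 and 1667 in SNL and 972, 1541 and 953 in SNL plus UNC0638. SNL replicates 1 and 4 were at more than double the level of the other SNL libraries, and the SNL and SNL plus UNC0638 ranges overlapped (log2 fold change 1.999, SE 0.34, adjusted p = 0.000752 in SNL against Sham). Lgals3 encodes galectin-3, a carbohydrate-binding protein of activated macrophages that other cells also make. Its values were 3312, 2792, 1432 and 2867 in Sham, 6387, 5713, 3591 and 5773 in SNL and 1978, 2809 and 3373 in SNL plus UNC0638. Every SNL library was above every library of the other groups (log2 fold change 1.08, SE 0.27, adjusted p = 0.00705 in SNL against Sham). Emr1, which encodes the macrophage antigen F4/80, was listed at 0 in all 11 libraries. So were 2 of 56 other myeloid genes and 1 of 7 endothelial genes in the table. A 0 throughout therefore does not show that a gene was silent.

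Scavenger receptors gave a divided picture, with 2 of 3 tested rising in SNL. Mrc1, the mannose receptor CD206 of tissue-resident macrophages, had 403, 503, 558 and 278 in Sham, 1109, 787, 599 and 731 in SNL and 865, 1047 and 1103 in SNL plus UNC0638. All ligated libraries exceeded all Sham libraries (log2 fold change 0.90, SE 0.23, adjusted p = 0.00677), at 1.85 times the Sham mean in SNL. Msr1, a receptor for modified lipoproteins, rose from 31.6 ± 11.1 to 96.9 ± 40.3 (log2 fold change 1.54, adjusted p = 0.0143). Cd163, the hemoglobin-haptoglobin receptor of resident macrophages, did not pass the test. It stood at 76.5, 96.6, 156 and 61.5 in Sham and 131, 125, 88.6 and 98.5 in SNL, which overlapped, with a 95% interval of -0.38 to 0.88 for the difference (log2 fold change 0.25, adjusted p = 0.496). Vsig4, a complement receptor of resident macrophages, was not tested, with at most 5.2 scaled counts in any library.

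All 3 Fc receptor genes rose, none overlapping between Sham and SNL. Fcgr2b, the inhibitory receptor for IgG, had 22.3, 37.5, 60.8 and 22.3 in Sham, 280.3, 228, 142 and 208 in SNL and 174, 571 and 629.5 in SNL plus UNC0638. On the log2(value + 1) scale its rise was the largest of the 39 genes in SNL against Sham (log2 fold change 2.64, SE 0.43, adjusted p = 0.000533), at 6.01 times the Sham mean. By the ratio of means, the low gene Cd80, described below, was higher, at 8.36 times. Fcer1g, the gamma chain that activating Fc receptors signal through, rose by 2.05 and Fcgr1a, the high-affinity receptor for IgG, by 1.61 on the log2 scale (adjusted p = 0.00102 and 0.00109). Genes of low-affinity Fc receptors resemble each other, and the sources used here do not say how reads shared between genes were assigned.

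All 4 genes of the phagocyte NADPH oxidase rose. Cybb, which encodes the catalytic subunit gp91phox, had 102, 102, 246 and 102 in Sham, 731, 573, 421 and 525 in SNL and 422, 857 and 693 in SNL plus UNC0638. Sham replicate 3 had more than double the value of the other Sham libraries and remained below every ligated library (log2 fold change 2.11, SE 0.31, adjusted p = 0.000307). Its membrane partner Cyba rose from 52.6 ± 10.3 to 197 ± 62.7 (log2 fold change 1.84, adjusted p = 0.000493). Ncf1 and Ncf4, the cytosolic subunits p47phox and p40phox, rose by 1.57 and 1.30 on the log2 scale (adjusted p = 0.00106 and 0.0106), with an overlap between Sham and SNL for Ncf4.

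The transcription factors Spi1 and Irf8 rose as well. Spi1, the gene of PU.1, had 9.74, 17, 73.2 and 17.7 in Sham, 112, 100.3, 124 and 86.6 in SNL and 110.3, 167 and 164 in SNL plus UNC0638. Replicate 3 was the highest library in Sham and also in SNL. Sham did not overlap with either ligated group, while the ligated groups overlapped with each other (log2 fold change 2.22, SE 0.46, adjusted p = 0.00243 in SNL against Sham). Irf8 had 19.5, 29.5, 85.7 and 23.8 in Sham, 175, 161, 131 and 149 in SNL and 158, 306 and 299 in SNL plus UNC0638. Here too Sham replicate 3 was far above the other Sham libraries and below every ligated library (log2 fold change 2.18, SE 0.39, adjusted p = 0.000988).

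**Figure D2:**
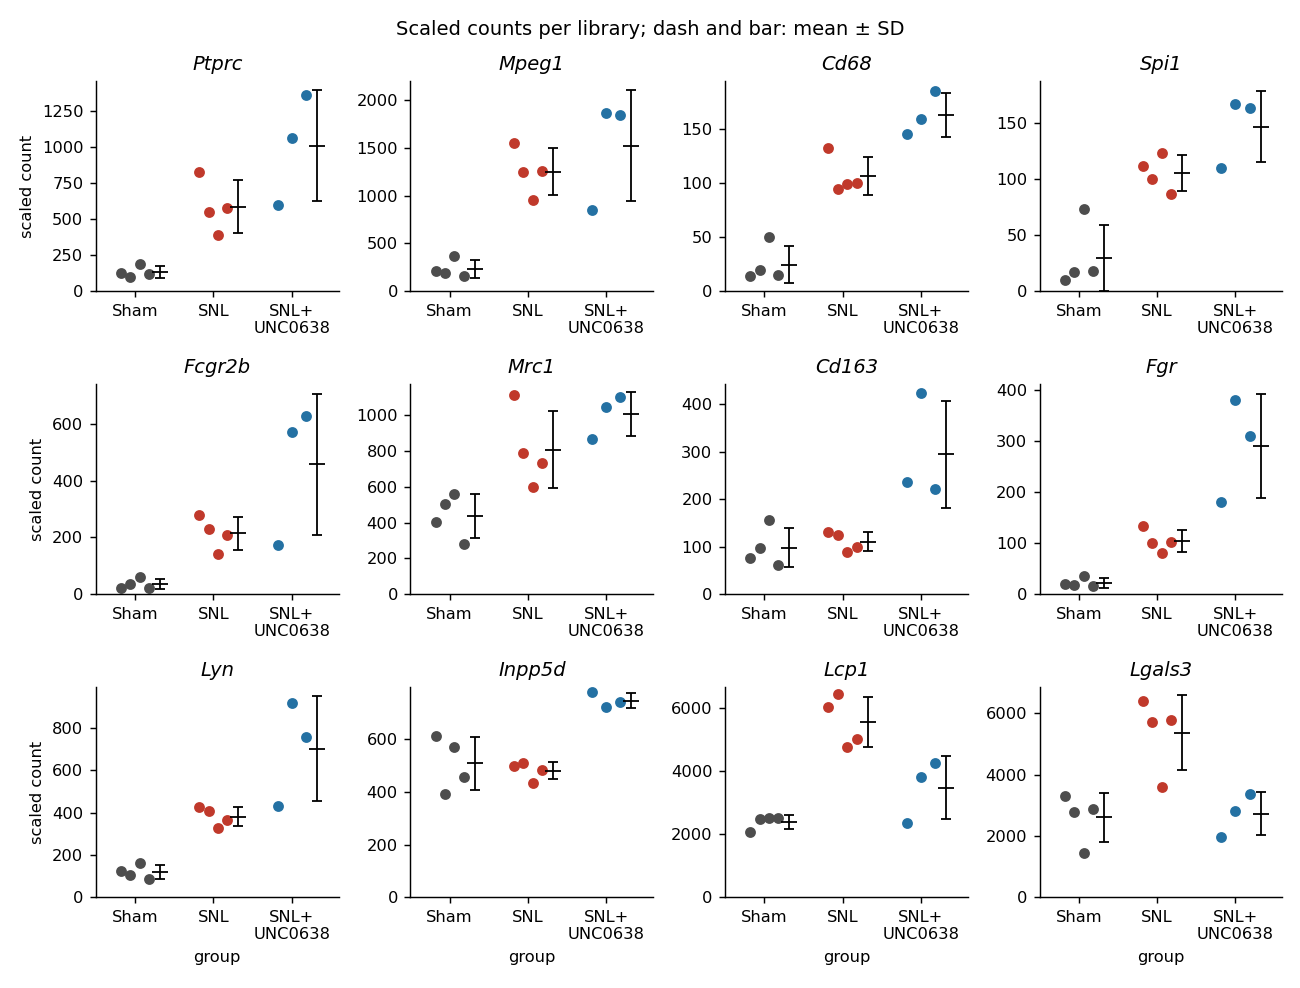
Scaled counts of 12 of the genes (vertical axes) in each library, with Sham, SNL and SNL plus UNC0638 along the horizontal axes; points are libraries, and dashes with bars are means ± SD. Ptprc, Mpeg1, Cd68, Spi1 and Fcgr2b are higher in both ligated groups than in Sham, Cd163 and Inpp5d are highest in SNL plus UNC0638, and Lgals3 is highest in SNL.

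Of 8 genes of signalling kinases, adaptors and phosphatases, 7 rose with ligation. Ptpn6 encodes the phosphatase SHP-1, which dampens receptor signals in blood cells. Its values were 77.9, 73.8, 109 and 82.2 in Sham, 369, 312, 222 and 283 in SNL and 264, 377 and 418 in SNL plus UNC0638, with no overlap between Sham and the ligated groups (log2 fold change 1.77, SE 0.20, adjusted p = 0.000111). Lyn and Fgr are kinases of the Src family that start signals of Fc receptors and integrins. Lyn had 125, 106, 162 and 87.6 in Sham, 426, 407, 327 and 364 in SNL and 432, 919 and 757 in SNL plus UNC0638, so that the 3 groups followed each other without overlap (log2 fold change 1.69, SE 0.24, adjusted p = 0.000236 in SNL against Sham). Fgr had 19.5, 17, 35.8 and 15.4 in Sham, 134, 99.9, 80.3 and 102 in SNL and 180.3, 381 and 309.6 in SNL plus UNC0638, again without overlap (log2 fold change 2.25, SE 0.30, adjusted p = 0.000178 in SNL against Sham).

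Syk, the kinase recruited by activated Fc receptors, rose from 55.3 ± 24.6 to 226 ± 29.1 (log2 fold change 2.099, adjusted p = 0.000147). Btk, a kinase of B cells and myeloid cells, and Plek, the protein kinase C substrate pleckstrin, rose by 1.74 and 1.87 on the log2 scale (adjusted p = 0.000277 and 0.000172). Lcp2, the adaptor SLP-76, rose less, by 0.64 (adjusted p = 0.00976). Inpp5d encodes SHIP1, a lipid phosphatase that opposes PI3K signalling in blood cells. It did not pass the test in SNL, with 611, 393, 572 and 457 in Sham and 498, 509, 433 and 482 in SNL. The Sham values spanned the SNL values, and the 95% interval of the difference was -0.36 to 0.24 on the log2 scale (adjusted p = 0.732).

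Among 4 actin and GTPase regulators, 3 rose. Lcp1, the actin-bundling protein L-plastin, had 2069, 2485, 2513 and 2509 in Sham, 6021, 6438, 4775 and 5025 in SNL and 2351, 3804 and 4253 in SNL plus UNC0638. SNL was above Sham in every library (log2 fold change 1.21, SE 0.18, adjusted p = 0.000309). Arhgdib and Was, the latter the actin regulator WASP, rose by 1.60 and 2.24 on the log2 scale (adjusted p = 0.00254 and 0.000462). Coro1a, the actin-binding protein coronin 1A, did not pass the test, with 1099, 768, 714 and 895 in Sham, 1137, 945, 721 and 940.3 in SNL and 673, 1239 and 857 in SNL plus UNC0638. Its 3 groups overlapped, and the 95% interval of SNL against Sham was -0.34 to 0.55.

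Both costimulatory ligands of T cells rose from low levels. Cd80 had 4.17, 0, 1.56 and 0.769 in Sham, 16, 15.4, 3.75 and 19.2 in SNL and 14.3, 30.9 and 23.2 in SNL plus UNC0638, so that it met the minimum value through ligated libraries alone. SNL replicate 3 fell within the Sham range, and the log2 fold change of 2.54 (SE 0.58) is given as a description, although Cd80 counts among the 35 calls. Cd86 rose from 11.1 ± 6.39 to 31.8 ± 9.01, also with overlap (log2 fold change 1.53, adjusted p = 0.00426). Alox5ap, the protein that presents arachidonic acid to 5-lipoxygenase for leukotriene synthesis, had 47.3, 42, 51.4 and 48.4 in Sham, 96.9, 73.3, 62.3 and 79.3 in SNL and 85.2, 102 and 92.9 in SNL plus UNC0638. Every ligated library was above every Sham library, and the rise was among the smaller ones (log2 fold change 0.70, SE 0.17, adjusted p = 0.00581).

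Between SNL plus UNC0638 and SNL, most of the genes did not pass the test. In this comparison 4 of 39 rose (10.3%: Cd163, Fgr, Inpp5d and Lyn), 2 fell (5.13%: Lgals3 and Lcp1) and 33 did not pass. Over all genes tested, 13.5% were called higher and 14.3% lower, so that neither share was above the background. The median log2 fold change was 0.31, beside 0.0066 over all genes, and 29 genes lay above 0 and 10 below. Libraries did not overlap and were higher for 9 genes (23.1%), beside 17.7% of all genes, and did not overlap and were lower for 3 (7.69%), beside 19.9%. The SNL libraries are shared with SNL against Sham, so that a gene's values in these comparisons are not independent.

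Cd163 went from 131, 125, 88.6 and 98.5 in SNL to 237, 424 and 222 with UNC0638, with means of 111 ± 20.4 and 294 ± 113 (log2 fold change 1.36, SE 0.31, adjusted p = 0.00941). SNL plus UNC0638 was also above all Sham libraries. Fgr, already higher in SNL, had means of 104 ± 22 in SNL and 290.1 ± 102 with UNC0638 (log2 fold change 1.43, SE 0.32, adjusted p = 0.00821). Inpp5d stood at 498, 509, 433 and 482 in SNL and at 778, 721 and 740.4 with UNC0638, all above every Sham and SNL library (log2 fold change 0.64, SE 0.15, adjusted p = 0.00972). The means of Lyn were 381 ± 44.2 and 703 ± 248 (log2 fold change 0.82, SE 0.25, adjusted p = 0.0331). In the other direction, Lgals3 fell from 5366 ± 1222 in SNL to 2720.1 ± 702, beside a Sham mean of 2601 ± 812 (log2 fold change -0.98, SE 0.29, adjusted p = 0.0294). Lcp1 fell from 5565 ± 793 to 3469 ± 994, still above its Sham mean of 2394 ± 217 (log2 fold change -0.72, SE 0.19, adjusted p = 0.0186).

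These 6 calls did not all hold. The term for 5 libraries described above covers all 3 with UNC0638, so that it overlaps with the group and makes the group difference less precise. A call lost with it does not show by itself that the difference is gone. With the term for those 5 libraries, none of the 39 genes was called in either direction: the adjusted p became 0.0843 for Cd163, 0.0747 for Fgr, 0.0554 for Inpp5d, 0.188 for Lyn, 0.111 for Lcp1 and 0.367 for Lgals3, with log2 fold changes of 1.13, 1.22, 0.61, 0.69, -0.65 and -0.31. In the other 22 settings Cd163, Fgr and Inpp5d stayed called, while Lyn lost its call in 8 of all 23, Lgals3 in 7 and Lcp1 in 4. Leaving out SNL plus UNC0638 replicate 1, the library with skeletal muscle genes, gave 8 genes higher and 0 lower, with Cd53, Fcgr2b, Ncf4 and Ptprc added. Leaving out Sham replicate 3 gave 8 higher and 2 lower, with Cd53, Cd68, Irf8 and Ncf4 added. Without SNL replicate 1 or SNL replicate 2, 3 were higher and 0 lower, and without SNL replicate 4 or SNL plus UNC0638 replicate 2, 3 were higher and 1 lower. Without SNL plus UNC0638 replicate 3, 3 were higher and 3 lower. A fit to estimated reads with a weight per library called 15 higher and 3 lower. The part of skeletal muscle RNA in these differences was not tested beyond the fit without that library.

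**Figure D3:**
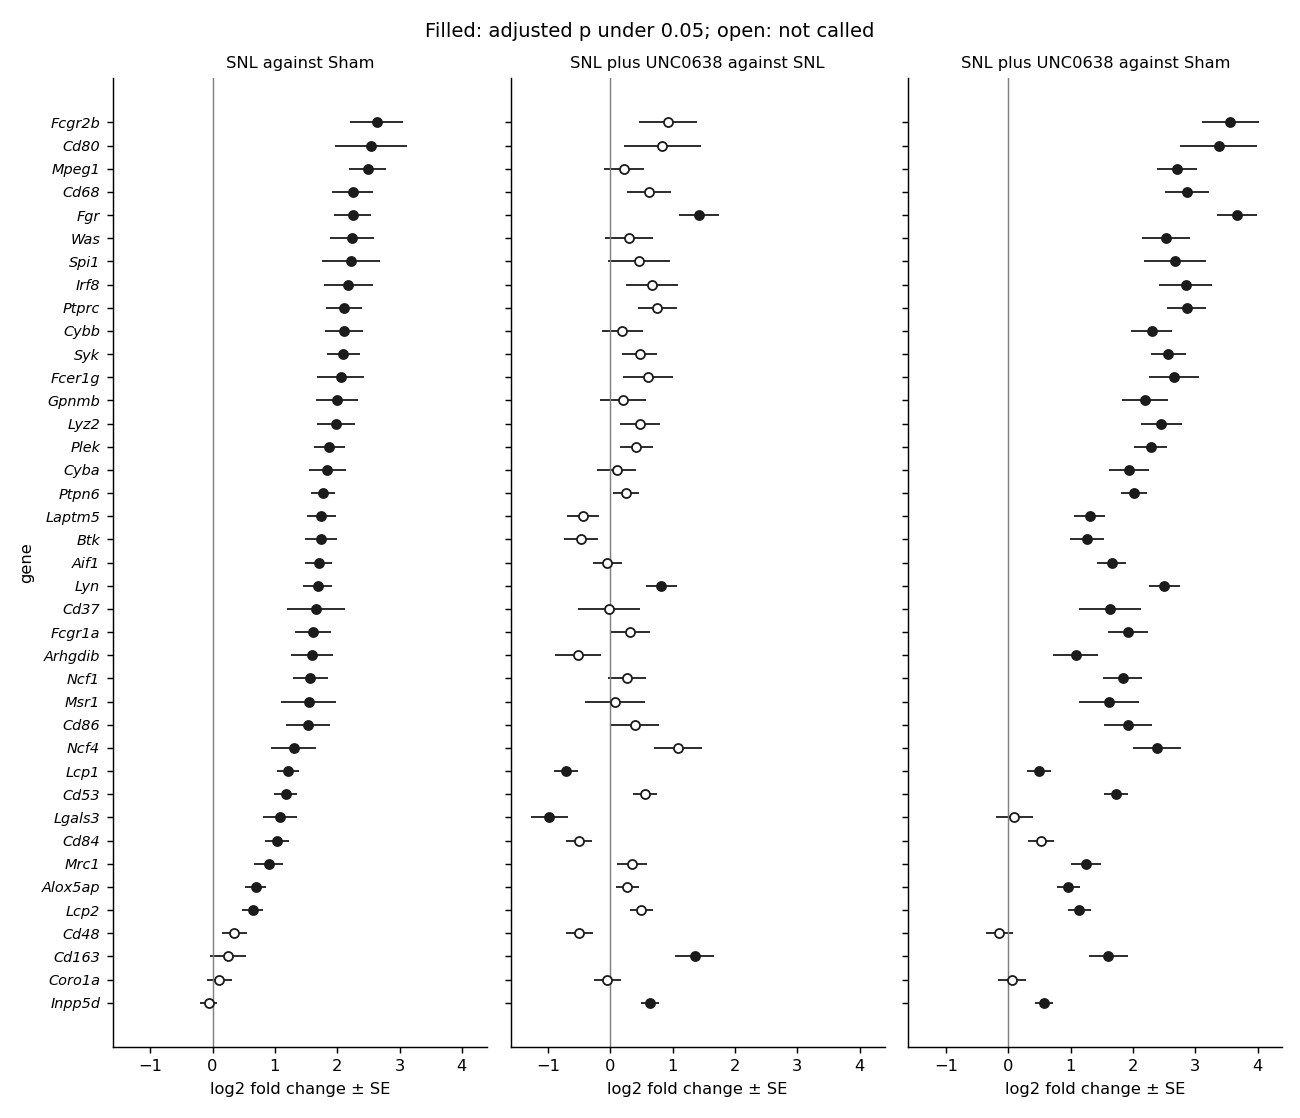
Log2 fold changes (horizontal axis, in log2 of value + 1) of the 39 genes tested (vertical axis, ordered by SNL against Sham) in the 3 comparisons, 1 per panel; bars are ± SE and filled points have an adjusted p under 0.05. Filled points fill most of the SNL against Sham and SNL plus UNC0638 against Sham panels, and 6 stand in the panel of SNL plus UNC0638 against SNL.

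Genes that did not pass the test with UNC0638 had intervals of unequal width. That of Aif1 ran from -0.56 to 0.46 on the log2 scale around -0.047, and that of Coro1a from -0.53 to 0.43 around -0.048. The interval of Mpeg1 was -0.49 to 0.92, that of Gpnmb -0.61 to 1.01 and that of Mrc1 -0.19 to 0.88. For Spi1 it was -0.63 to 1.56 and for Fcgr2b -0.079 to 1.93, so that a doubling is within the range for these genes. Genes near the threshold were Cd53 (log2 fold change 0.56, adjusted p = 0.0527), Ncf4 (log2 fold change 1.08, adjusted p = 0.0554) and Lcp2 (log2 fold change 0.50, adjusted p = 0.0655). The genes with the lowest uncalled log2 fold changes were Arhgdib (-0.52), Cd84 (-0.50), Cd48 (-0.50), Btk (-0.47) and Laptm5 (-0.44), with adjusted p-values of 0.296, 0.0948, 0.105, 0.204 and 0.199.

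Beside the called genes, 5 genes had every SNL plus UNC0638 library above every SNL library without passing the test: Cd53, Cd68, Fcer1g, Ncf4 and Lcp2. Cd68 had 133, 94.3, 99.1 and 100.3 in SNL and 145, 159 and 186 with UNC0638 (log2 fold change 0.62, adjusted p = 0.205). Ncf4 had 72.4, 67.7, 36 and 54.7 and 76.2, 149 and 148, and Cd53 had 266, 268, 186 and 262 and 279, 345 and 475, so that the closest libraries of both groups were near each other. In the lower direction, Cd84 had 80.9, 101, 88.6 and 85.7 in SNL and 75.3, 51.1 and 63.2 with UNC0638. Ptprc, the general leukocyte gene, had 829.6, 548, 388 and 579 in SNL and 596, 1064 and 1361 with UNC0638; replicate 1 of the treated libraries fell within the SNL range and the other 2 were above it (log2 fold change 0.75, adjusted p = 0.0906). The same pattern, with SNL plus UNC0638 replicate 1 inside the SNL range, was seen for Fcgr2b and Irf8.

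By role, the 8 signalling genes had 3 higher in this comparison, and the medians of their log2 fold changes were 1.75 in SNL against Sham and 0.48 in SNL plus UNC0638 against SNL. The 3 Fc receptor genes had medians of 2.05 and 0.61, with none called in the second. The 4 oxidase genes had 1.71 and 0.23, and the 2 transcription factors 2.20 and 0.56, also with none called. The 6 leukocyte surface genes had 1.42 and -0.23, and the 4 actin and GTPase regulators 1.40 and -0.28, with Lcp1 the only call in the second.

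Against Sham, ligated ganglia with UNC0638 had 35 of 39 genes higher and 0 lower, beside 25.5% and 26.0% of all genes. The genes that did not pass were Cd48, Cd84, Lgals3 and Coro1a. This comparison shares the Sham libraries with SNL against Sham and the UNC0638 libraries with the comparison above. Set side by side, the median log2 fold changes were 1.71 in SNL and 1.93 in SNL plus UNC0638, and genes at least 4-fold higher and called numbered 12 and 18. On the log2(value + 1) scale the largest rise was that of Fgr (log2 fold change 3.68, SE 0.32, adjusted p = 3.65e-05), whose value was 2.25 in SNL. Fcgr2b followed at 3.56 and Cd80 at 3.37, against 2.64 and 2.54 in SNL. By the ratio of means the order was another, with Cd80 at 14.1 times Sham, Fgr at 13.2 and Fcgr2b at 12.8. Cd163 rose (log2 fold change 1.61, adjusted p = 0.00153), as did Inpp5d (log2 fold change 0.58, adjusted p = 0.0071). Lgals3 was at 0.098 with a 95% interval of -0.55 to 0.74, beside 1.08 in SNL. With the 5-library term it was called higher than Sham (log2 fold change 0.77, adjusted p = 0.0135), and with Sham replicate 3 left out it was -0.17. Cd84 was at 0.53 (adjusted p = 0.0531). The call of Lcp1 (log2 fold change 0.49, adjusted p = 0.0487) was lost in 13 of 23 other settings.

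Other genes of the myeloid lineage, from a list of 54 tested, gave counts on the same scale. Over all genes tested, 24.8% were called higher and 23.4% lower in SNL against Sham. The shares were 13.5% and 14.3% in SNL plus UNC0638 against SNL. In SNL against Sham 50 were higher, with the smallest p for Cd74, the invariant chain of MHC class II, Fcgr3a, an activating IgG receptor, Clec7a, the beta-glucan receptor Dectin-1, and Cx3cr1, the receptor for fractalkine. Their log2 fold changes were 3.07, 3.30, 3.10 and 2.07 (adjusted p = 0.000101, 0.000101, 0.000106 and 0.000125). The single gene that fell was Hmox1, heme oxygenase 1 (log2 fold change -0.51, adjusted p = 0.038), named after its value was seen. In SNL plus UNC0638 against SNL 13 were higher and 1 lower. Those with the smallest p were Csf3r, the receptor for granulocyte colony-stimulating factor (log2 fold change 3.30, adjusted p = 0.000136), Cebpb, a transcription factor of inflammatory gene expression (log2 fold change 1.63, adjusted p = 0.00166), Csf2rb, the shared beta chain of the receptors for GM-CSF, IL-3 and IL-5 (log2 fold change 2.19, adjusted p = 0.00199), and Cd14, a coreceptor for lipopolysaccharide (log2 fold change 1.97, adjusted p = 0.005). Csf3r had 41.4, 47.2, 58.6 and 34.7 in SNL and 363, 521 and 476 with UNC0638. With the 5-library term, 5 were higher and 0 lower. The gene that fell, named after its value was seen, was Gpr34, a lysophosphatidylserine receptor of microglia and macrophages (log2 fold change -1.44, adjusted p = 0.0228).

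Of 14 macrophage activation genes tested, 7 were higher and 1 lower with ligation, and 5 were higher and 1 lower in SNL plus UNC0638 against SNL. Over all genes tested, 24.8% were called higher and 23.4% lower in the first comparison, and 13.5% and 14.3% in the second. Nos2, the inducible nitric oxide synthase, had 0, 2.27, 3.12 and 0.769 in Sham, 0.941, 0.857, 1.502 and 0 in SNL and 131, 398 and 210.3 in SNL plus UNC0638, so that it was above a few scaled counts in the last group alone. Tnf, the gene of tumour necrosis factor, had 9.41, 6.86, 7.51 and 4.56 in SNL and 36.8, 68.1 and 47.7 with UNC0638. Nos2 and Tnf reached the minimum value of 10 through the UNC0638 libraries alone, so that their calls, 2 of the 5 higher ones, had to differ and are given as values only. Il6, the gene of interleukin-6, had at most 0.769 in Sham and was among the 7 higher with ligation. It reached the minimum value through ligated libraries alone, and its call is given as a value only. Il1b, the cytokine interleukin-1 beta, went from 30.8 ± 8.87 in SNL to 238 ± 37.9 (log2 fold change 2.95, adjusted p = 0.000213) and Il1rn, the antagonist of the IL-1 receptor, from 28.8 ± 6.45 to 198 ± 71.4 (log2 fold change 2.71, adjusted p = 0.00371). Arg1, arginase 1, went the other way, from 500.4, 341, 285 and 417 in SNL to 14.3, 111 and 119 (log2 fold change -2.68, adjusted p = 0.00682), and was 27.8, 18.2, 28 and 26.1 in Sham. Arg1 was named after its values were seen. The counts of this list were 4 higher and 1 lower with the 5-library term, and 7 higher and 1 lower without SNL plus UNC0638 replicate 1.

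**Figure D4:**
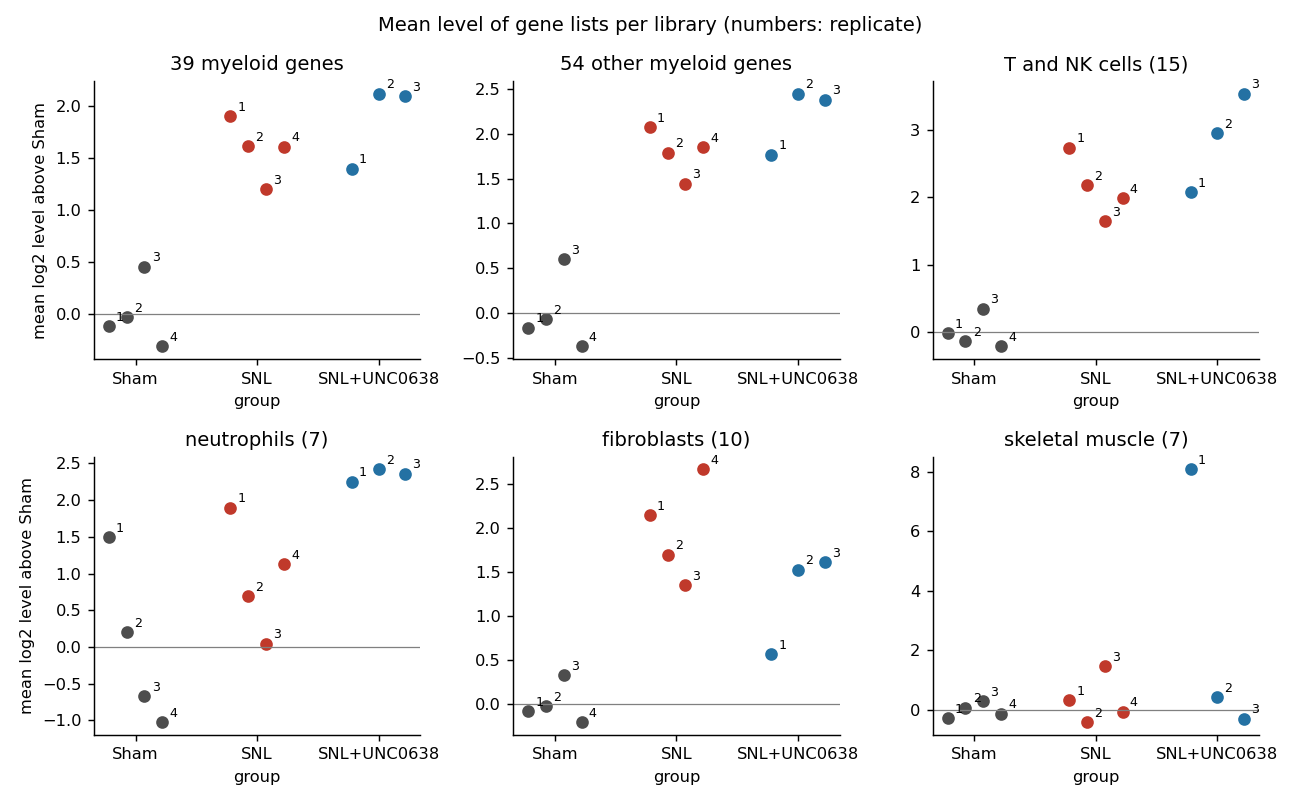
Mean log2 level above the Sham mean (vertical axis) of 6 gene lists in each library (horizontal axis, by group; numbers are replicate numbers). The 39 macrophage and myeloid cell genes lie at 1.20 to 1.90 in SNL and 1.40 to 2.12 in SNL plus UNC0638, and skeletal muscle genes are at 8.08 in SNL plus UNC0638 replicate 1.

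Markers of other cells were compared in the same libraries. For the counts below, 24.8% of all genes tested were called higher in SNL against Sham. In SNL plus UNC0638 against SNL, 13.5% were called higher and 14.3% lower. Counts such as 2 of 7 or 1 of 3 are too small to set apart from these shares. T and NK cell genes summed to 207 to 520 scaled counts in Sham, 945 to 1391 in SNL and 829 to 1643 in SNL plus UNC0638, and 12 of 15 tested were higher in SNL. Most of these sums came from Cd4 alone, at 145 to 408, 680 to 867 and 562 to 878 in the same order. Which cells its RNA came from was not tested. Cd3e, Cd5, Cd8a, Cd8b, Cd247, Gzmb, Nkg7 and Prf1, among the 12 higher in SNL, stayed below 10 in every Sham library. They reached the minimum value through ligated libraries alone, so that the count of 12 is given as a description only. With UNC0638 against SNL 4 of the 15 were higher and 1 lower. The higher count ran from 0 to 7 with 1 library left out. It was 0 without SNL replicate 2, 3 or 4 or SNL plus UNC0638 replicate 2 or 3, and 7 without Sham replicate 3. Cd8b and Nkg7, among the higher ones, reached the minimum value of 10 through the UNC0638 libraries alone. Their calls had to differ, so that the count of 4 is given as a description only. Neutrophil genes summed to 46.9 to 282 in Sham, 123 to 288 in SNL and 500.5 to 694 in SNL plus UNC0638, so that Sham and SNL overlapped. A single gene, Lcn2, made the largest part of the sums with UNC0638. It stood at 26.1 to 48.7 in Sham, 20.1 to 88.6 in SNL and 231 to 356 in SNL plus UNC0638. Of 7 tested, 2 were higher in SNL against Sham and 2 in SNL plus UNC0638 against SNL. The latter were Lcn2, the gene of lipocalin 2 (log2 fold change 2.95, adjusted p = 0.00103), and the chemokine receptor Cxcr2, which had 12.2, 7.29, 1.502 and 5.47 in SNL and 26.9, 21.7 and 34.8 with UNC0638. Cxcr2 was at most 3.12 in Sham and met the filter only through the UNC0638 libraries. Its calls, counted in both comparisons, are given as values only. Against SNL, 6 of the 7 genes lay above 0 on the log2 scale, and Ngp lay at -0.0555 (adjusted p = 0.968). None of the T and NK cell or neutrophil markers in the table was at 0 in all libraries. B cell genes summed to 10.8 to 32.7, 43.8 to 80.9 and 66.4 to 129 in the same order. Fibroblast genes summed to 26596 to 38360, 95702 to 247760 and 44782 to 115520, with 9 of 10 tested higher in SNL against Sham. In that comparison 6 of 6 endothelial and 11 of 14 cell cycle genes tested were higher, and 1 of 3 mast cell genes. The part of these cells, and of the fall of neuronal markers, in the results for Ptprc, Fgr, Lyn and the other genes was not tested.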

How the data were processed

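Total RNA of rat dorsal root ganglia was sequenced in 11 libraries as stranded single-end reads of 50 bases after removal of ribosomal RNA, per the labels' protocols. TopHat2 2.0.9, Cuffdiff 2.1.1 and the build rn4 are named in the submitters' processing notes; the annotation counted and the use of strand are not given there. In the deposited table the authors gave signal values, that is, counts per gene scaled with 1 factor per library: 98.9% to 99.2% of values below 100 steps were whole multiples of a single step (0.429 to 1.56) within 0.01 steps. Reads were estimated as value over step.

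Groups were taken from the labels. The 12085 genes that reached 10 in 3 or more libraries were tested, without Sdc2 and Pcdhgc5, left out after their values, at 0 in all libraries of a group, were seen. As the values were not raw counts, limma 3.58.1 (R 4.3.3, statmod 1.5.0) modelled log2(value + 1) by group means over all libraries, eBayes with trend and robust estimates, two-sided, with Benjamini-Hochberg adjustment over all genes tested. The script was tested on simulated data. Members, roles and lists were chosen with earlier results of these data known. Values in every library are given for the gene of each role with the smallest p in SNL against Sham, for genes not called there, for genes called in SNL plus UNC0638 against SNL, and for Spi1, Mrc1, Cd163, Gpnmb and Lgals3. From other lists at most 4 called genes with the smallest p are named. Alternatives were other scalings, pseudocounts of 0.5 and 4, no filter, a filter at 50, fits with only the groups compared or without robust estimates, a replicate block, libraries left out and the added term. Limma-voom on estimated reads was added after seeing the data. Promoter letters are from RefSeq (GRCr8).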

Additional observations from a re-analysis of the deposited data

Results flagged for a closer look

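In 78 groups of 4 libraries (39 genes in Sham and in SNL), 7 had a library whose gap to the nearest other exceeded Dixon's 95% critical share of the range. Chance gives about 1 in 20 groups, and the genes share libraries. Sham replicate 3 was the library in 4 of the 7. It stood at 49.86 scaled counts of Cd68, against 13.9 to 19.3 in the other Sham libraries. Its Cybb was 246.2, against 101.6 to 102.2. Spi1 was 73.23 there, against 9.74 to 17.7, and Irf8 was 85.7, against 19.5 to 29.5. These genes encode a lysosomal protein, an oxidase subunit and 2 transcription factors of macrophages, and SNL was called higher for each without that library too. In SNL, replicate 3 was low for Cd53 at 186.2, against 261.8 to 267.5, and replicate 1 was high for Cd68 at 132.6, against 94.3 to 100.3. Lcp1 was 2069 in Sham replicate 1, against 2485 to 2513 in the other Sham libraries. No explanation was tested.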

How the results depend on the processing

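Of 138 counts of called genes at other settings, 127 were within 1.5 times the reported count, and the median of all genes moved by at most 0.0751 under another scaling. The 138 include counts of genes lower than Sham, reported as 0, and large counts of genes higher than Sham. The 127 therefore says little on the smaller counts of SNL plus UNC0638 against SNL, given below. The 35 genes higher in SNL against Sham stayed called wherever tested. In SNL plus UNC0638 against SNL, 4 higher and 2 lower became 0 and 0 with the added term, which overlaps with the treated group. They were 15 and 3 on estimated reads. With 1 library left out they ranged over 3 to 8 and 0 to 3. With the replicate block they were 3 and 1 (Lgals3 -0.92, adjusted p = 0.0627, and Lyn 0.74, 0.0853, lost), and 33 genes were higher against Sham. Same-numbered deviations correlated at -0.45 to 0.43, and not every library correlated best with its own number. The 0.43 was between replicate 3 of Sham and replicate 3 of SNL. These correlations cannot tell whether same-numbered libraries share more than a number. In SNL plus UNC0638 against Sham, 31 of the 35 calls held at every setting, and Arhgdib, Cd37, Lcp1 and Msr1 lost theirs at some.

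Genes without a call changed sign. With Sham replicate 3 and SNL replicate 3 left out, the log2 fold change was 0.051 for Inpp5d in SNL against Sham (0.016 with upper-quartile scaling), 0.066 for Cd37, -0.15 for Cyba and -0.21 for Msr1 in SNL plus UNC0638 against SNL, and -0.027 for Coro1a and -0.17 for Lgals3 against Sham. With the added term it was 0.26 for Coro1a, -0.087 for Cybb, -0.51 for Spi1 and -0.11 for Was against SNL, and 0.23 for Cd48 against Sham. On estimated reads it was 0.052 for Aif1, 0.11 for Cd37 and 0 for Coro1a against SNL, and -0.0045 for Lgals3 against Sham. With 1 library left out, ranges were -0.18 to 0.034 for Inpp5d in SNL against Sham, and against SNL -0.29 to 0.22 for Aif1, -0.18 to 0.13 for Cd37, -0.28 to 0.16 for Coro1a, -0.026 to 0.45 for Gpnmb, -0.15 to 0.43 for Cyba, -0.33 to 0.69 for Msr1 and -0.0285 to 0.48 for Cybb. Against Sham with UNC0638 they were -0.17 to 0.27 for Coro1a, -0.17 to 0.31 for Lgals3 and -0.34 to 0.056 for Cd48. The cause was not tested. The planned edgeR fit was not run, since the values are not counts. Depth limits Cd80, Btk, Was, Cd37 and Cd86, each below 100 scaled counts in every library.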
